A study of Mus musculus with 24 samples.

Results

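RNA on the ribosomes of serotonin neurons was compared between mice lacking Celf6 (knockout, KO) and wild-type (WT) mice. The 10 libraries were taken by their labels, 5 KO and 5 WT, from the 24 libraries of the series. All came from brain at postnatal day 9, from the region just behind the thalamus with the cortices removed. All mice carried an allele that tags ribosomes in serotonin cells, and RNA was obtained by translating ribosome affinity purification (TRAP), in which tagged ribosomes are pulled down with the RNA they carry. The labels set the KO mice apart from the WT mice by the Celf6 genotype. The promoter of the TRAP allele, the deleted part of Celf6, the strain, the sex of each mouse and whether mice were pooled were not given in the sources used here. Replicates 1 to 3 of each genotype were sequenced in run 1 and replicates 4 and 5 in run 2. Since the labels do not state that each library came from its own mouse, p-values measure the spread between these libraries.

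CELF6 belongs to a family of RNA-binding proteins that act in the nucleus on the choice of exons and in the cytoplasm on the stability and translation of messenger RNA, often through U- and G-rich sequence in 3′ untranslated regions (UTRs). Serotonin neurons of the raphe nuclei make serotonin from tryptophan and send axons through most of the brain. TRAP reads RNA bound by ribosomes, so both a gene's level and the form of its transcript are seen after export from the nucleus.

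Total counts ran from 3925381 to 6751468 over the TRAP libraries, and between 13788 and 15216 of 24062 genes had at least 1 count. Pairs of TRAP libraries correlated at r = 0.77 to 0.87 over genes (log2 CPM, where CPM is a count scaled to its library's total), which describes these libraries only, as genes are not independent replicates. The library labelled KO TRAP 1 stood apart. It held Xist, the RNA expressed from the inactive X chromosome of females, at 63.2 CPM, together with 25.6 CPM summed over 4 Y-linked genes (Ddx3y, Uty, Kdm5d and Eif2s3y). In the other libraries Xist lay at or above 135 CPM beside Y-linked sums of at most 0.31 CPM, or at or below 2.39 CPM beside sums of at least 55.4 CPM. Some results below are also given without KO TRAP 1, but not every one that changed without it.

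Celf6 had the smallest p of the genes lower in KO with a mean of at least 5 CPM. It lies on chromosome 9 at 59578337–59607292 (mm10). Its level was 113, 21.1, 56.3, 26.3 and 35.6 CPM in KO libraries 1 to 5, and 147, 183, 169, 117 and 85.0 CPM in WT libraries 1 to 5. Only the library labelled KO TRAP 1 reached the WT range, above WT TRAP 5. The other 4 KO libraries all lay below every WT library. The log2 fold change was −1.52 ± 0.38 (SE, as for all fold changes here), and −1.93 without KO TRAP 1. Neither passed adjustment over all genes (edgeR, adjusted p = 0.9992 and 0.474). RNA of Celf6 was thus still counted in every KO library, and whether the deleted part lies within the counted exons was not tested.

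The other 5 CELF genes are close relatives that bind related sequences. Celf5 averaged 174 CPM in KO and 120 CPM in WT (log2 fold change 0.58 ± 0.29, unadjusted p = 0.0615 in edgeR). Celf1, Celf2, Celf3 and Celf4 had log2 fold changes of 0.53 ± 0.42, 0.18 ± 0.34, 0.11 ± 0.31 and −0.04 ± 0.28. None of the 5 passed, adjusted or not. Per kilobase of exon, the mean over the 10 libraries was highest for Celf4, at 68.3 CPM per kb, then Celf3 at 48.0, Celf6 at 34.5, Celf5 at 33.4, Celf1 at 15.9 and Celf2 at 15.8. Of 59 other RNA-binding and splicing regulators tested, 0 passed, and 1 had an unadjusted p under 0.05 (1.69%, against 3.73% of all genes). That gene was Srsf3, a splicing factor, with means of 38.9 CPM in KO and 67.3 CPM in WT (−0.80 ± 0.38).

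The machinery that makes, packs and takes back serotonin was abundant in both genotypes, as the label of the RNA states. Tph2, the gene of the neuronal tryptophan hydroxylase, averaged 1479 ± 369 CPM (SD, n = 5) in WT TRAP and 27.0 ± 12.6 CPM (SD, n = 3) in WT input, the total RNA of the same tissue. Per kilobase of exon, the WT TRAP means were 1488 CPM per kb for Gchfr, which regulates synthesis of the hydroxylase cofactor, 1110 for the serotonin transporter gene Slc6a4, 563 for Tph2, 497 for Ddc, 421 for the serotonergic transcription factor gene Fev and 69.9 for the vesicular transporter gene Slc18a2.

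None of these genes differed between genotypes by more than the spread between libraries. Tph2 was at 2554, 696, 1385, 2410 and 1970 CPM in KO libraries 1 to 5 and 1870, 1847, 1425, 1186 and 1068 CPM in WT libraries 1 to 5, so KO libraries lay both above and below all WT libraries. Its log2 fold change was 0.29 ± 0.31, and the difference in mean log2 CPM was −0.33 within run 1 and 0.95 within run 2. Slc6a4 was at 3648, 2397, 2295, 2743 and 2916 CPM in KO, against 2171, 4269, 4105, 3524 and 1178 CPM in WT. Here the KO values lay inside the WT range (−0.10 ± 0.29). The groups overlapped for Fev (0.32 ± 0.33), Ddc (−0.10 ± 0.25) and Slc18a2 (0.31 ± 0.31). In RNA pulled from bulk tissue, fewer serotonin cells and less RNA per cell cannot be told apart.

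**Figure D1:**
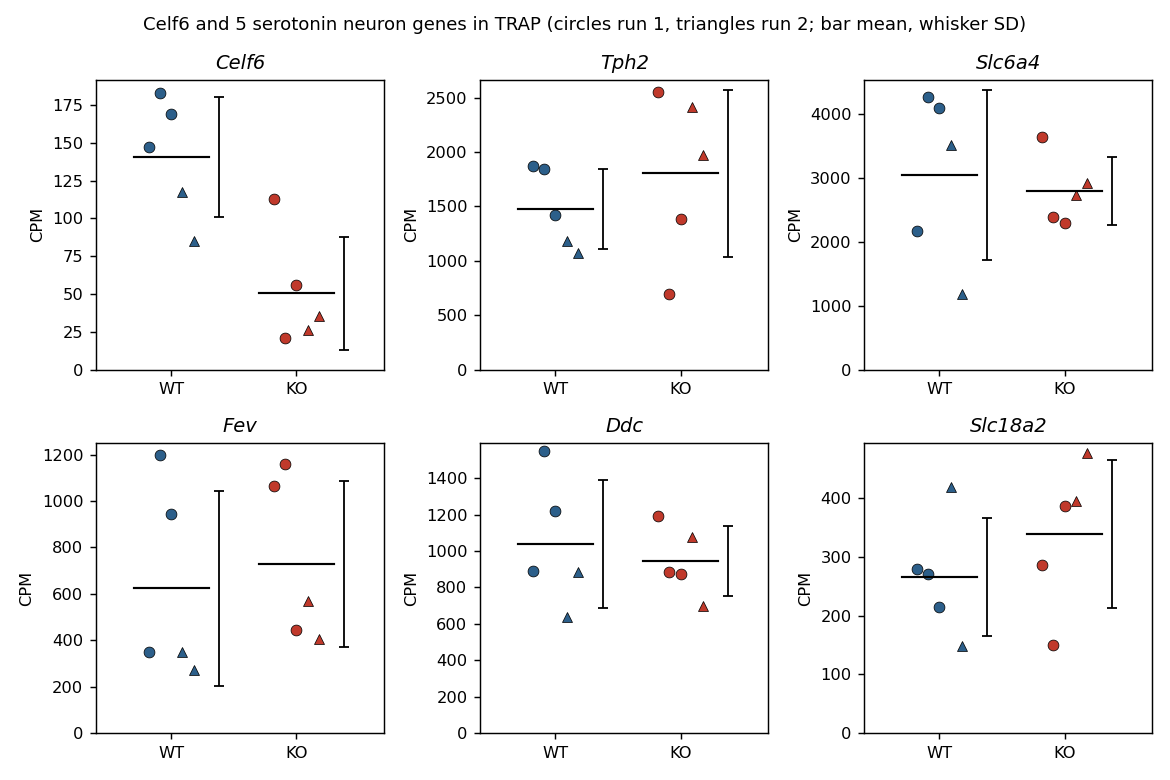
Normalised level (CPM, linear axis from 0) of Celf6 and 5 serotonin neuron genes in each TRAP library, WT in blue and KO in red, circles for run 1 and triangles for run 2, with the mean as a bar and the SD as a whisker (n = 5 per genotype). For Celf6 4 of 5 KO libraries lie below all WT libraries, with KO TRAP 1 at 113 CPM the exception, and the other genes overlap.

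Among 8 tested genes of serotonin synthesis and its cofactor tetrahydrobiopterin, 4 were higher and 4 lower in value in KO. Spr encodes sepiapterin reductase, the enzyme of the last step of cofactor synthesis. It was the one of the 8 whose groups did not overlap (12.5%, against 0.746% of all genes). It was at 12.3, 7.40, 7.61, 11.8 and 13.6 CPM in KO libraries 1 to 5 and 0.93, 2.00, 5.10, 3.63 and 3.08 CPM in WT libraries 1 to 5. Its log2 fold change was 1.82 ± 0.80, with an unadjusted p of 0.0346 and an adjusted p of 0.9992 in edgeR. It is expressed at a low level, so few reads stand behind each value. The other genes of the list, among them Gch1 (0.00 ± 0.32), which starts cofactor synthesis, and Qdpr (0.04 ± 0.28), which recycles it, overlapped. Of 10 serotonin receptor genes 0 passed. The autoreceptor gene Htr1a averaged 76.9 CPM in KO and 62.2 CPM in WT (0.41 ± 0.36), and Htr2a and Htr4 varied over more than 10-fold among libraries of 1 genotype. Of 14 serotonergic transcription factor genes 11 were higher in value in KO, with a median of 0.35 that became 0.10, with 8 higher, without KO TRAP 1.

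Over all genes, 0 of 12204 tested passed in TRAP (0%; edgeR, adjusted p under 0.05), and 455 (3.73%) had an unadjusted p under 0.05, of which 242 (1.98%) were higher and 213 (1.75%) lower in KO. DESeq2 called 1 gene, Cd68. The 5 KO and 5 WT libraries did not overlap for 91 genes (0.746%), 37 with KO above and 54 with KO below. Without KO TRAP 1 they did not overlap for 206 (1.69%, 91 above and 115 below). Smaller groups fail to overlap more readily, so nothing is read from the rise. Run 1 alone gave 0 called genes and run 2 alone, with 2 libraries per genotype, 264.

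Genes from the 12 of smallest p among those higher in KO, with a mean of at least 5 CPM, are described here. Cadm1 encodes a synaptic adhesion molecule. It was at 53.4, 99.2, 66.9, 135 and 101 CPM in KO, against 25.0, 27.9, 29.5, 56.0 and 61.3 CPM in WT (1.25 ± 0.32). KO TRAP 1 lay below WT TRAP 4 and WT TRAP 5, and the other KO libraries lay above all WT libraries. Rock2, which encodes a kinase that acts on the actin cytoskeleton, was at 31.3, 170, 92.4, 112 and 154 CPM in KO, against 55.7, 33.1, 46.9, 30.3 and 34.8 CPM in WT (1.48 ± 0.41). Without KO TRAP 1, which was the only KO library inside the WT range, its log2 fold change was 1.76. Myh10, which encodes a nonmuscle myosin heavy chain, ranged from 79.1 to 1494 CPM in KO and from 111 to 347 CPM in WT (1.64 ± 0.52), so that KO libraries lay on both sides of the WT range.

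Cdk5r1 encodes p35, the activator of the neuronal kinase CDK5, and was at 195, 352, 147, 192 and 267 CPM in KO, against 98.4, 108, 94.0, 117 and 160 CPM in WT (1.01 ± 0.29). Only KO TRAP 3 lay inside the WT range.

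H2-T24, a nonclassical MHC class I gene, had the smallest p of these 12. It was at 25.4, 36.5, 17.5, 42.3 and 46.4 CPM in KO, against 9.10, 1.08, 1.93, 10.7 and 13.5 CPM in WT, without overlap (2.38 ± 0.61). It belongs to a family of near-identical copies and overlaps A930015D03Rik, so its count is uncertain. In input it averaged 39.2 ± 23.7 CPM in KO (SD, n = 5) and 35.6 ± 24.5 CPM in WT (SD, n = 3). Chml, which encodes a Rab escort protein, was at 46.8, 69.5, 25.5, 41.0 and 58.7 CPM in KO, against 18.7, 10.95, 9.49, 20.4 and 19.4 CPM in WT, also without overlap (1.65 ± 0.44). Chml lies within the span of Opn3, and reads were counted without strand. Also in this group were Pgr15l (1.72 ± 0.51), Cnbd2 (2.37 ± 0.70), Gucd1 (2.17 ± 0.66), the inositol pyrophosphate kinase gene Ppip5k2 (1.33 ± 0.41) and the Rab27 effector gene Sytl2 (1.46 ± 0.45), whose groups overlapped. Gucd1 turned on KO TRAP 4, at 342 CPM, and KO TRAP 1, at 109 CPM, against 13.4 to 45.5 CPM in the other KO libraries.

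**Figure D2:**
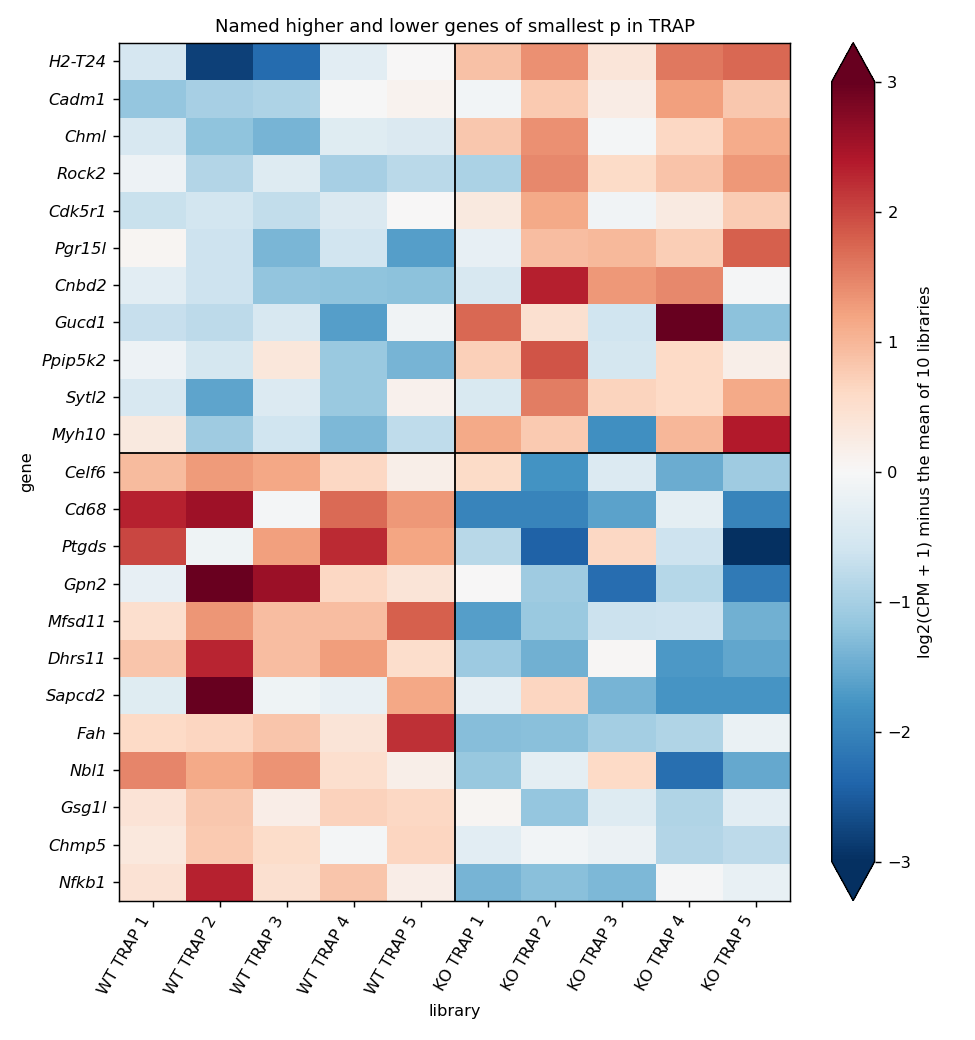
Level of the named higher genes (top) and lower genes (bottom) of smallest p in the 10 TRAP libraries, as log2(CPM + 1) minus the mean of the 10 libraries of each gene, with the colour scale held at −3 and 3. WT libraries are on the left and KO libraries on the right. Chml and H2-T24 are above the WT libraries in all 5 KO libraries, and Cd68, Mfsd11, Dhrs11, Fah, Gsg1l, Chmp5 and Nfkb1 are below them in all 5. The genes were chosen on this contrast.

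Of the 12 lower genes, Gsg1l encodes an auxiliary subunit of AMPA-type glutamate receptors. It was at 66.1, 28.0, 48.4, 33.5 and 50.8 CPM in KO, against 84.4, 113, 72.9, 104 and 98.7 CPM in WT (−1.06 ± 0.34), without overlap. Chmp5, of the ESCRT membrane-sorting machinery, was at 64.6, 76.4, 71.8, 43.6 and 46.6 CPM in KO, against 101, 140, 120, 78.3 and 127 CPM in WT (−0.93 ± 0.30). Of the 12, these were the 2 at the highest levels without overlap. Mfsd11, of a transporter superfamily, was at 1.66 to 4.42 CPM in KO, against 10.96 to 28.2 CPM in WT (−2.50 ± 0.69). Fah, of tyrosine breakdown, and Nfkb1, which encodes a subunit of NF-κB, were lower in value by −2.26 ± 0.71 and −2.07 ± 0.67. Dhrs11 (−3.18 ± 0.93), Gpn2 (−2.99 ± 0.81), Sapcd2 (−3.999 ± 1.24) and the BMP antagonist gene Nbl1 (−1.94 ± 0.61) were at low levels, with KO means of 1.24 to 6.95 CPM. Each of these genes had an adjusted p of 0.9992 in edgeR.

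The remaining 2 lower genes are markers of cells other than neurons. Ptgds encodes prostaglandin D2 synthase, abundant in meninges and choroid plexus. It was at 46.6, 14.8, 128, 54.1 and 7.59 CPM in KO, against 338, 76.0, 196, 397 and 192 CPM in WT, with KO TRAP 3 above WT TRAP 2 (−2.30 ± 0.60). In input it was at 129, 56.2, 637, 103 and 82.4 CPM in KO, against 892, 572 and 852 CPM in the 3 WT libraries (−2.11, unadjusted p = 0.00202 in edgeR), and KO input 3 lay inside the WT range. Cd68, a lysosomal gene of microglia and macrophages, was at 0, 0, 0.30, 2.21 and 0 CPM in KO, against 18.7, 21.9, 2.81, 11.9 and 8.76 CPM in WT, without overlap. Its fitted log2 fold change of −5.12 ± 1.31 rests on few KO reads.

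Other markers of those cells varied widely between WT libraries. The summed level of 10 choroid and ependymal markers was 35.1 to 305 CPM in KO and 37.9 to 1976 CPM in WT, led by Ttr, which encodes transthyretin (0.26 to 249 CPM in KO, 7.03 to 1798 CPM in WT, −2.92 ± 1.11). The sum of 12 meningeal and fibroblast markers was 77.5 to 344 CPM in KO and 133 to 806 CPM in WT. Igf2 in that list was lower in value by −1.10 ± 0.40, while Pdgfra (0.31 ± 0.51) and Col1a2 (0.55 ± 1.30) were not. For 16 microglia and macrophage markers the sum was 41.0 to 70.5 CPM in KO and 37.5 to 182 CPM in WT. Of the 7 tested, Cd68 alone had an unadjusted p under 0.05 (14.3%, against 3.73% of all genes). Of 15 endothelial and mural markers the sum was 25.1 to 89.1 CPM in KO and 37.9 to 137 CPM in WT. No marker of these 4 lists was at 0 in all 10 libraries. The part of these cells in the differences of Ptgds and Cd68 was not tested. Of 15 astrocyte and 18 oligodendrocyte markers, 6 and 9 were higher in value in KO, with medians of −0.03 and −0.01.

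Genes of excitability were represented by 51 voltage-gated channel genes. None passed, and 31 were higher in value in KO (60.8%, where 6346 of all 12204 genes were). An unadjusted p under 0.05 was found for 6 (11.8%, against 3.73% of all genes), all 6 of them higher (1.98% of all genes were). They were the potassium channel genes Kcnq5, Kcnd3, Kcnn3, Kcna6 and Kcnma1 and the pacemaker channel gene Hcn4. Kcnq5 averaged 36.1 CPM in KO and 11.3 CPM in WT (1.69 ± 0.57), and Kcnd3 averaged 86.3 and 38.7 CPM (1.10 ± 0.37). Those 2 did not overlap between genotypes (3.92%, against 0.746% of all genes). Kcnn3, a small-conductance calcium-activated channel gene, was higher by 0.54 in run 1 and 2.29 in run 2. The list median was 0.16, against 0.02 for all genes, and it was 0.06 within run 1 and 0.31 within run 2. In the longest of 5 groups of genes by summed exon length, described below, 71% were higher in value. Of the 2441 genes in that group, 122 were higher with an unadjusted p under 0.05. The part of exon length in the channel counts was not tested.

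Of 36 genes of vesicle release, 29 were higher in value (80.6%, against 52% of all genes, median 0.19). An unadjusted p under 0.05 was found for 1 (2.78%, against 3.73% of all genes). That gene was Cplx2 (0.53 ± 0.25). Complexin 2, its product, clamps and promotes fusion of synaptic vesicles. Without KO TRAP 1, 24 of the 36 were higher in value (median 0.11). Of 68 axon guidance and adhesion genes 44 were higher in value (64.7%). Cadm1, Epha5 (0.95 ± 0.40), Lrrtm1 (0.88 ± 0.40) and Sema5a (0.83 ± 0.37) were the 4 with an unadjusted p under 0.05 (5.88%). Of 40 cytoskeleton regulators 30 were higher in value (75.0%, where 6346 of all 12204 genes were). The median was 0.26, with 0.16 without KO TRAP 1, 0.04 within run 1 and 0.56 within run 2. Rock2, Cdk5r1 and the dynein heavy chain gene Dync1h1 (0.85 ± 0.35) had an unadjusted p under 0.05 (7.5%). Of 52 transmitter receptor genes the muscarinic receptor gene Chrm2 (1.56 ± 0.65) and the GABA-A subunit gene Gabrb2 (0.90 ± 0.40) did so (3.85%).

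Short and long genes differed in opposite ways, and the sequencing run moved with this. With genes ranked by summed exon length and divided into 5 groups of near-equal size, the median log2 fold change was −0.20, −0.04, 0.03, 0.12 and 0.23 from the shortest to the longest group. Within run 1 these medians were −0.03, −0.03, −0.06, −0.03 and −0.01. Within run 2 they were −0.61, −0.26, −0.04, 0.18 and 0.48. In run 2 both KO libraries had long genes higher than short ones (by 0.58 and 0.82 in log2 CPM around each gene's mean) and both WT libraries had them lower (by −0.33 and −0.54). In run 1 KO TRAP 1 and WT TRAP 1 shared the first pattern (0.19 and 0.37), and libraries 2 and 3 of both genotypes shared the second (−0.18, −0.31, −0.44 and −0.22). The median exon length was 4883 bases for the 12 higher genes, 1673 bases for the 12 lower genes and 3117 bases for all genes tested. The part of this pattern in the gene differences was not tested.

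**Figure D3:**
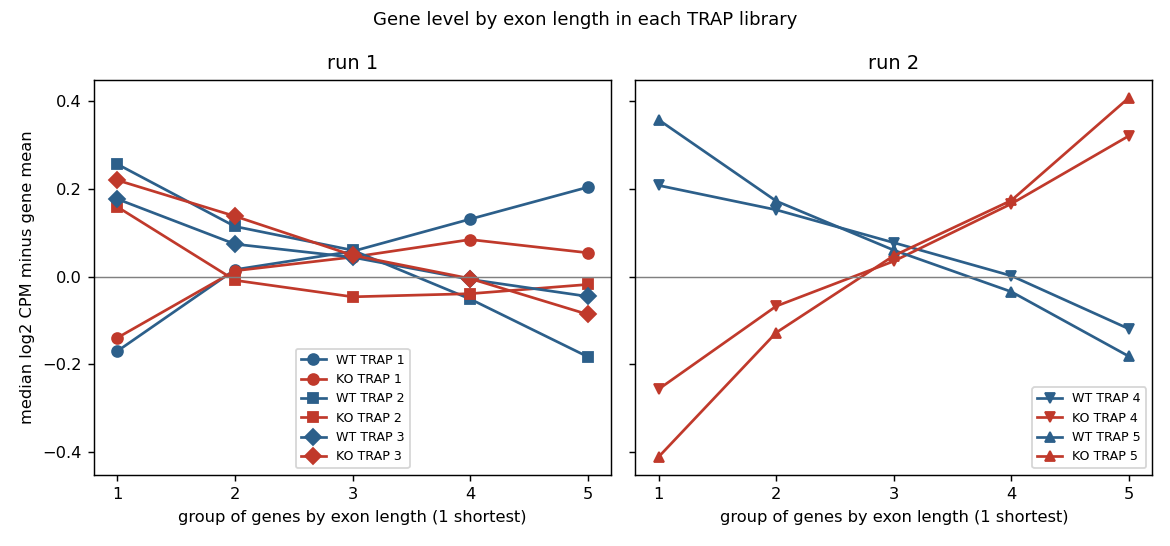
Median log2 CPM minus each gene's mean over the 10 TRAP libraries, for 5 groups of genes by summed exon length from shortest (1) to longest (5), with 1 line per library, run 1 on the left and run 2 on the right, WT in blue and KO in red. In run 2 the KO lines climb and the WT lines descend, while in run 1 the lines of KO TRAP 1 and WT TRAP 1 lie together and apart from those of replicates 2 and 3.

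Ribosomal protein genes, which are short, followed the same division. Of 67 cytosolic ribosomal protein genes 62 were lower in value in KO, with a median of −0.48. The median was 0.11 within run 1 and −1.55 within run 2. The mean log2 CPM of the list was 3.96, 4.96, 5.35, 4.12 and 4.11 in KO libraries 1 to 5 and 4.13, 4.92, 4.84, 5.40 and 5.72 in WT libraries 1 to 5. The genotypes lay apart in replicates 4 and 5 and were mixed in replicates 1 to 3. Rplp2 (−0.80 ± 0.38) alone of the list had an unadjusted p under 0.05 (1.49%, against 3.73% of all genes). Rpl10a, the ribosomal protein tagged in the TRAP method, was at 16.3 ± 9.71 CPM in KO, against 24.5 ± 15.6 CPM in WT (SD, n = 5 each). Of 75 nuclear genes of oxidative phosphorylation 63 were lower in value (median −0.24, with 0.07 within run 1 and −0.73 within run 2). Cycs, the cytochrome c gene, and Atp5g1, of the ATP synthase, were the 2 whose groups did not overlap (2.67%, against 0.746% of all genes). Cycs was at low counts, with means of 1.34 CPM in KO and 6.77 CPM in WT.

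**Figure D4:**
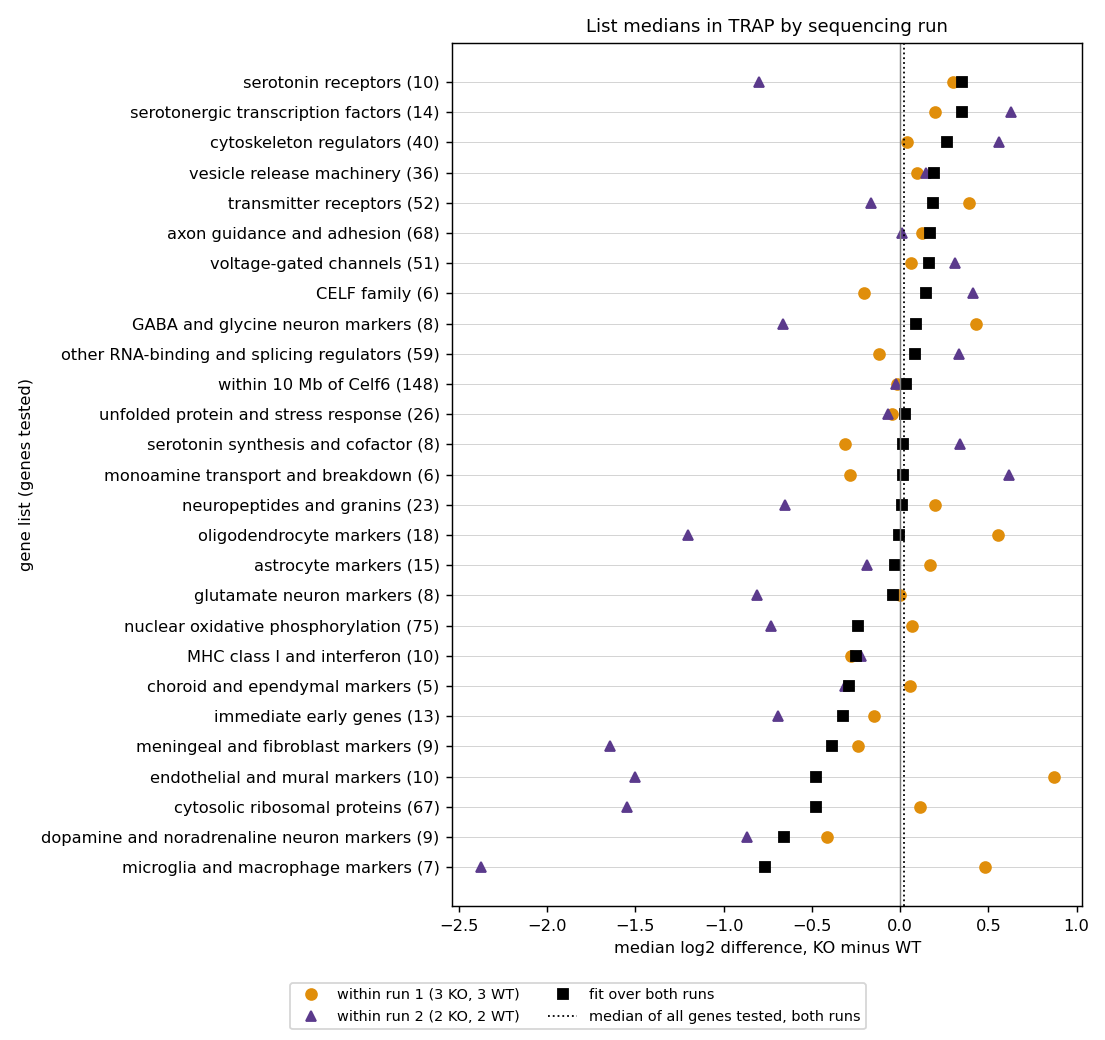
Median log2 difference between KO and WT TRAP for each gene list with at least 5 genes tested (number in brackets), over both runs (black squares), within run 1 (orange circles, 3 libraries per genotype) and within run 2 (purple triangles, 2 per genotype), with the median of all genes as a dotted line. For ribosomal proteins the values are 0.11 in run 1 and −1.55 in run 2, and for oligodendrocyte markers 0.55 and −1.21.

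Genes near a targeted locus are inherited with it in breeding. Of 148 tested genes within 10 Mb on either side, 80 were higher and 68 lower in value in KO, with a median of 0.03. Of these, 6 had an unadjusted p under 0.05 (4.05%, against 3.73% of all genes), and 1 did not overlap between genotypes (0.676%, against 0.746% of all genes). Atm, which encodes the kinase that senses DNA breaks, was at 31.4 to 50.6 CPM in KO, against 10.2 to 20.4 CPM in WT, without overlap (1.32 ± 0.42). Rora, which encodes a nuclear receptor, was at 73.1 to 159 CPM in KO, against 29.0 to 100 CPM in WT (1.00 ± 0.37).

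The deposited tables mark genes bound by CELF6 in crosslinking and immunoprecipitation (CLIP) of a CELF6-YFP fusion. Of 1152 genes marked as bound, 1134 were tested in TRAP, and 606 were higher and 528 lower in value in KO (median 0.03). Of these, 36 had an unadjusted p under 0.05 (3.17%), against 3.93% of 3105 genes in the tables that were not marked. Of 411 tested genes bound in a 3′ UTR, 261 were higher in value (median 0.09), where 52% of all genes were. An unadjusted p under 0.05 was found for 13 higher and 2 lower genes (3.65% together, against 3.73% of all genes). Of all genes, 1.98% were higher and 1.75% lower at that threshold, so the total matched and the directions were less even. The median of the genes bound in a 3′ UTR was −0.02 within run 1 and 0.29 within run 2. Their median exon length was 3663 bases, against 3426 bases for the genes not marked.

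Input libraries, 5 KO and 3 WT after 2 near-identical WT libraries were summed, allowed a test of whether the genotype difference was particular to TRAP. Of 14261 genes tested 0 passed (0%; edgeR, smallest adjusted p = 1.00), and 554 had an unadjusted p under 0.05. Mfsd11 had the smallest p. It was lower in value in KO TRAP (−2.50) and higher in KO input, at 8.33 to 26.5 CPM against 3.39 to 6.08 CPM in WT input, a difference of differences of −4.39 ± 0.98. Gsg1l behaved alike, at 90.8 to 156 CPM in KO input and 43.7 to 88.3 CPM in WT input (−1.84 ± 0.47). Commd7, Zfp414 and Inpp5d were the other 3 lower genes of the 5 with the smallest p, at −2.26 ± 0.57, −1.85 ± 0.50 and −9.19 ± 2.25. Inpp5d lay at 0 to 0.515 CPM in WT input. It was at 41.2 CPM in KO input 1, against 0.745 to 5.39 CPM in the other KO input libraries. In the other direction lay Ica1 (2.20 ± 0.56), Zfp597 (2.44 ± 0.69) and Kcnn3 (2.52 ± 0.72), together with Nron and Tha1, which turned on KO TRAP 2 at 107 and 45.3 CPM. Kcnn3 was at 128 CPM in WT input 5, against 37.4 and 45.8 CPM in the other WT input libraries. DESeq2 called 3 genes, Mfsd11 among them.

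The form of transcripts was compared through the percent spliced in (PSI), a fraction from 0 to 1 that the authors estimated per library with MISO. A PSI of 1 means, per the file headers, that a skipped exon is included. For a pair of mutually exclusive exons it means that the second listed exon is used. The table lists 8935 splicing events, and 1861 had values in at least 3 libraries of each genotype. None passed (0%; limma on log2 odds of PSI, adjusted p under 0.05), 125 (6.72%) had an unadjusted p under 0.05, and 72 (3.87%) did not overlap between genotypes. The authors' deposited table calls 1 splicing event at a false discovery rate of 0.0368, a retained intron of Surf2. Its median PSI there is 0.0125 in KO and 0.00516 in WT. The WT median lies below 0.01, the value to which lower PSI was raised before the fit here, so the tests are not alike for this event. Of 750 events in genes marked as bound by CELF6, 42 (5.60%) had an unadjusted p under 0.05, and of 1111 others 83 (7.47%).

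An exon of Atp5j, which encodes subunit F6 of the mitochondrial ATP synthase, showed the widest difference among the events with the 5 smallest p. The exon spans 175 bases, chr16:84834809-84834983 (mm10, minus strand), and matches an annotated exon of the gene. Its PSI was 0.399, 0.391, 0.402 and 0.347 in KO libraries 1 to 4, with no value in KO TRAP 5, and 0.540, 0.541, 0.534, 0.495 and 0.475 in WT libraries 1 to 5. All KO values lay below all WT values, and KO TRAP 1 lay with the other KO libraries. The difference was −0.132 in mean PSI, −0.141 in run 1 and −0.138 in run 2, with an adjusted p of 0.0696 in limma. It passed on the linear PSI scale and with PSI held between 0.05 and 0.95 (limma, adjusted p = 4.31e-05 and 7.14e-05). It did not pass without the run covariate (limma, adjusted p = 0.164) or with the replicate number as a block (0.600). With 1 library left out the adjusted p was 0.086 to 0.224 in limma. In input the PSI lay between 0.406 and 0.518 in the 5 KO libraries, against 0.503 in WT library 1 and 0.468 and 0.417 in WT libraries 2 and 3, which count as 1 sample. The input means were 0.461 in KO and 0.473 in WT (n = 5 and n = 2), and the difference of the differences had an adjusted p of 0.933 in limma. Atp5j is marked as bound by CELF6, and its total level in TRAP differed by −0.23 ± 0.27 (log2).

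Another event, in a gene of neuronal function, was the exon pair of Snap25. The gene encodes a SNARE protein of vesicle fusion made in forms that differ in this exon. The second exon, 118 bases at chr2:136770057-136770174, had a PSI of 0.913, 0.873, 0.888, 0.874 and 0.891 in KO libraries 1 to 5 and 0.841, 0.801, 0.825, 0.832 and 0.813 in WT libraries 1 to 5. The groups did not overlap. The means were 0.888 ± 0.016 and 0.822 ± 0.016 (SD), and the adjusted p was 0.202 in limma. In input, PSI lay between 0.887 and 0.906 in KO and between 0.869 and 0.923 in WT. The difference of the differences between TRAP and input had an adjusted p of 0.892 in limma. The total level of Snap25 differed by −0.09 ± 0.20 (log2).

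The event of smallest p was an exon of 2859 bases annotated to Zhx1 and 9130401M01Rik (chr15:58052224-58055082), included at a PSI of 0.9904 ± 0.003 in KO and 0.968 ± 0.009 in WT (SD, n = 5 each). Its adjusted p was 0.0506 in limma. It was 0.0384 without the run covariate, 0.0171 over events with a value in all 10 libraries, 0.177 on the linear scale and 0.411 with the replicate number as a block, and from 0.0333 to 0.167 with 1 library left out. With PSI held between 0.05 and 0.95 both groups lay at the upper limit and the difference was 0. In 3 further events the group means differed near an end of the scale. An 81-base exon of the ribosomal protein gene Rps19 had a PSI of 0.035 in KO and 0.010 in WT, and its groups overlapped. An exon of 103 bases in Pfdn5, which encodes a prefoldin subunit, had 0.938 and 0.984. A retained intron of Fam70a had 0.019 and 0.008. Each of these 3 had an adjusted p of 0.0696 in limma. On the linear scale it was 0.177 for Rps19 and Pfdn5 and 0.731 for Fam70a. Over events with a value in all 10 libraries it was 0.0317 for Rps19 and 0.0281 for Fam70a. Most WT values of Rps19 and Fam70a lay below 0.01 and were set to 0.01 before the fit, which narrows their spread. With PSI held between 0.05 and 0.95 both genotypes lay at the lower limit for Rps19 and Fam70a, and Pfdn5 had an adjusted p of 0.972 (limma). Estimates near 0 or 1 rest on few reads of the rarer form, and the read number behind each PSI is unknown here.

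Of the other 4 among the 10 of smallest p, an exon of Cdk14, which encodes a cyclin-dependent kinase, had a mean PSI of 0.967 in KO and 0.939 in WT. An exon of Wac had 0.983 and 0.937. A retained intron of the tryptophanyl-tRNA synthetase gene Wars had 0.182 and 0.296, without overlap. A retained intron of Enpp5 had 0.520 and 0.8285, with 3 values per genotype that overlapped. For retained introns the headers do not say which form a PSI of 1 stands for. Of these 10 events, 7 were in genes marked as bound by CELF6, as were 750 of the 1861 tested events (40.3%). The 10 were chosen on this contrast, and nothing is read from that count. By event class, an unadjusted p under 0.05 was found for 55 of 812 skipped exons (6.77%) and 34 of 556 retained introns (6.12%). It was found for 14 of 170 alternative 5′ splice sites (8.24%) and 13 of 221 alternative 3′ splice sites (5.88%). For mutually exclusive exons it was 9 of 102 (8.82%). The share over all 1861 events was 6.72%, and no class is set apart by these counts. For skipped exons the share was 6.59% where the exon length was a multiple of 3 bases, so that the frame is kept, and 6.92% where it was not.

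**Figure D5:**
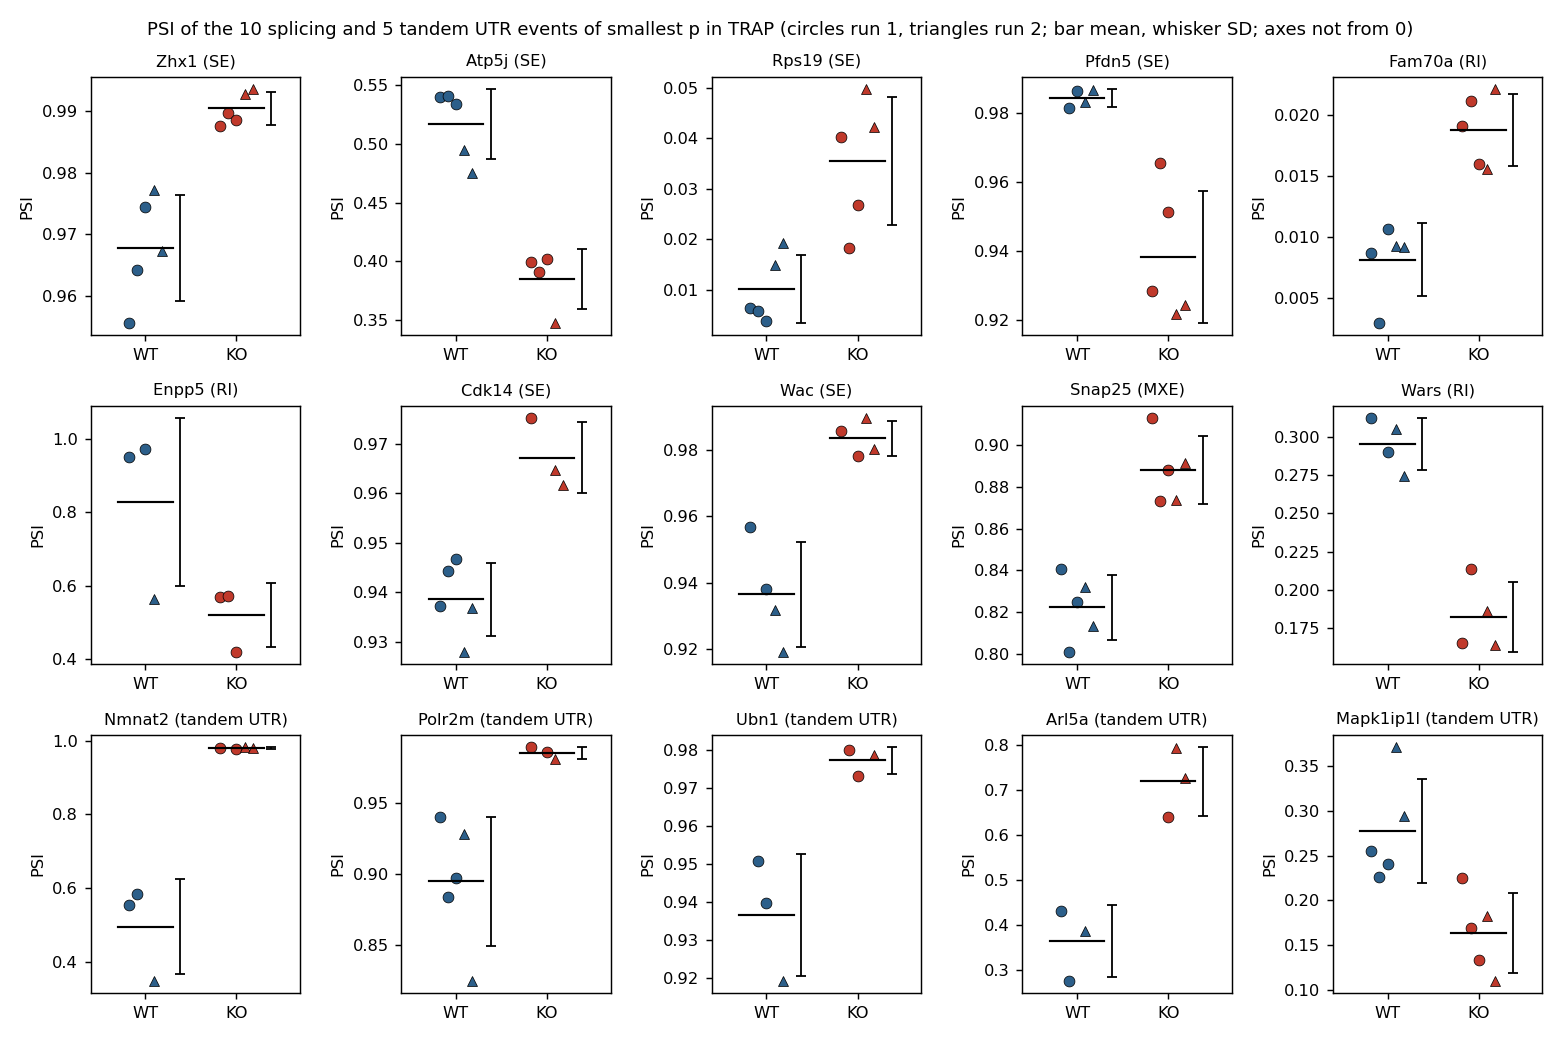
PSI (fraction) in each TRAP library for the 10 splicing events and, in the bottom row, the 5 tandem UTR events of smallest p, WT in blue and KO in red, circles for run 1 and triangles for run 2, with mean and SD. Libraries without a value are left out, and vertical axes differ and do not start at 0. Groups lie apart in 13 panels and overlap for Rps19 and Enpp5. The events were chosen on this contrast.

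Transcripts that end at alternative sites in 1 UTR, called tandem UTRs, gave the single event that passed. The gene was Nmnat2, which encodes an NAD-synthesizing enzyme that protects axons from degeneration. Its 2 UTR forms start at the same base of chromosome 1 (plus strand, mm10). The long form covers chr1:153115670-153119265 and the short form, to which a PSI of 1 corresponds per the file headers, the 401 bases of chr1:153115670-153116070. The PSI was 0.979, 0.977, 0.983 and 0.979 in KO libraries 1, 3, 4 and 5, and 0.554, 0.585 and 0.347 in WT libraries 1, 2 and 4. The other 3 libraries had no value. KO libraries thus had nearly all of the estimate on the short form, and WT libraries had it divided between both forms (limma, adjusted p = 0.00699). The authors' deposited table gives a false discovery rate of 0.00956 for the event.

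The Nmnat2 call depended on few libraries. Without KO TRAP 1 the adjusted p was 0.0570, without KO TRAP 5 it was 0.0645, and on the linear PSI scale 0.0758 (limma). Without WT TRAP 1, 2 or 4 too few WT values were left for a test. In input the PSI was 0.952, 0.505, 0.521, 0.972 and 0.945 in KO libraries 1 to 5 and 0.560 and 0.508 in the 2 WT libraries with a value. KO input libraries 2 and 3 thus lay with the WT libraries. The difference between TRAP and input was not past the threshold (limma, adjusted p = 0.713). Nmnat2 is not marked as bound by CELF6, and its total level in TRAP differed by 0.33 ± 0.28 (log2).

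In all, 340 of the 960 listed tandem UTR events were tested. The 1 that passed is 0.294% of them, 18 (5.29%) had an unadjusted p under 0.05, and 8 (2.35%) did not overlap between genotypes. The next in order of p were Polr2m, with a mean PSI of 0.985 in KO and 0.895 in WT (limma, adjusted p = 0.0743), Ubn1 (0.977 and 0.937), Arl5a (0.720 and 0.364) and Mapk1ip1l (0.164 and 0.277). The last 3 had an adjusted p of 0.690 in limma. For Arl5a, which encodes a small GTPase of the Golgi, the values were 0.641, 0.794 and 0.727 in KO libraries 3 to 5. They were 0.431, 0.275 and 0.386 in WT libraries 1, 2 and 4. Input had 0.371 to 0.766 in KO and 0.586 to 0.962 in WT. The difference of the differences for Arl5a had an adjusted p of 0.553 in limma. For Mapk1ip1l all 10 libraries had a value, from 0.110 to 0.225 in KO and from 0.226 to 0.371 in WT. Of 129 tested events in genes marked as bound by CELF6, 5 (3.88%) had an unadjusted p under 0.05, and of 211 others 13 (6.16%).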

How the data were processed

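Counts per gene are whole numbers deposited by the authors, made with featureCounts 1.4.6-p5 on mm10 without strand, per the file headers. Trimming used Trimmomatic and alignment STAR, per the submitters' processing notes, with versions not given in the sources used here. PSI values are fractions deposited by the authors, from MISO, and the p-values and false discovery rates beside them are the authors' own, from an analysis of variance per the file headers. Library cDNA was amplified before sequencing, per the labels' protocols.

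Genotype effects were fitted on the counts of the 10 TRAP libraries with edgeR 4.0.16 in R 4.3.3 (filterByExpr, TMM, quasi-likelihood test) with sequencing run as covariate, Benjamini-Hochberg adjustment and threshold 0.05. The 4 repeat runs were left out, as was the WT input library labelled an outlier (325072 counts). TRAP was set against input by an interaction term in 1 fit, with WT input 2 and 3 summed, which differed by no more than repeat runs did. CPM of genes use TMM, and summed CPM of lists and sex-linked genes use library totals. PSI was held between 0.01 and 0.99 and tested by limma 3.58.1 on log2(PSI/(1−PSI)) with run as covariate. The interaction for PSI, the groups by exon length and the gene groups by CLIP were added after seeing the data. DESeq2 1.42.0 and sva 3.50.0 served in alternatives. Scripts were tested on simulated data. The members and lists were chosen with earlier results of these data known.

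Genes were named by rule: Celf6, 5 serotonin genes, Rpl10a, the 12 of smallest p in each direction with a mean of at least 5 CPM, 3 of smallest p per list and near Celf6, members of short lists, and the 5 of smallest p in each direction for the interaction. Some genes that the rule takes are not reported here. Events were any past the threshold and the 10 splicing and 5 tandem UTR events of smallest p. The remaining list genes with an unadjusted p under 0.05 were described after their values were seen. Of the remaining lists, 0 members passed. The medians were 0.01 for neuropeptides and granins, 0.03 for unfolded protein and stress response, −0.25 for MHC class I and interferon, −0.33 for immediate early genes, −0.66 for dopamine and noradrenaline, 0.09 for GABA and glycine and −0.04 for glutamate neuron markers. The median was 0.01 for monoamine transport and breakdown. Without KO TRAP 1 it was −0.19 for that list and −0.07 for MHC class I and interferon. Of 5 blood markers 4 were at 0 in all libraries.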

Additional observations from a re-analysis of the deposited data

Results flagged for a closer look

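In 79 groups of 4 or 5 libraries behind the named genes and events, 2 held a library far from the others by Dixon's gap criterion, where about 1 in 20 groups is expected by chance. Fah in WT TRAP 5 was at 34.6 CPM, against 9.21 to 12.8 CPM in the other 4 WT libraries. The Fam70a retained intron had a PSI of 0.00294 in WT TRAP 2, against 0.00872 to 0.0106 in the other 4, all below the KO libraries.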

How the results depend on the processing

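No gene passed in TRAP in the edgeR fit reported above, and DESeq2 called 1, dropping the expression filter 16 of 18828, and run 2 alone 264 of 12371, of which 173 were higher in KO. Each other setting, including each left-out library, called 0. The genes whose groups did not overlap numbered 91 (0.746%), and 206 (1.69%) without KO TRAP 1, where the smaller group by itself makes overlap rarer. For the difference from input, DESeq2 called 3 and dropping the filter 3, and each other setting 0. For splicing events, 3 passed with PSI held between 0.05 and 0.95, 3 with a value required in all 10 libraries, 1 without the run covariate and 1 on the linear scale, and 0 to 2 with 1 library left out. For tandem UTRs, where 1 passed, these 4 settings gave 2, 0, 2 and 0, and leaving out 1 library 0 to 1. Nmnat2 lacked a value in some libraries, so the second setting did not test it, nor did leaving out a WT library that had one. With the replicate number as a block 0 genes, 0 splicing events and 0 tandem UTR events passed, and 0 genes for the difference from input. Deviations from the group means showed no pairing of TRAP libraries by equal number (r of −0.129 to 0.132, 1 of 5 closest to its own number). Whether libraries of equal number shared their preparation was not tested. Among single genes, Tph2 changed sign in run 1 alone (−0.14). Slc6a4 did in run 2 alone (0.29) and ranged from −0.32 to 0.10 with 1 library left out, and Ddc did in run 2 alone (0.24) and ranged from −0.25 to 0.045. The cause of these changes was not tested. Counts of 3925381 or more per TRAP library left genes below a few CPM with few reads.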
